A study of Mus musculus with 12 samples.

Results

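The Kruppel-like factors are a family of zinc finger transcription factors, and 9 of them were followed here through 4 stages of thymocyte development in the mouse: Klf2, Klf3, Klf4, Klf6, Klf7, Klf9, Klf10, Klf12 and Klf13. Every probe set with one of these symbols as its only gene symbol in the platform annotation was taken, which gave 35 of 34945 such probe sets and 9 of 18193 genes. The sorted cells came from untreated C57BL/6 mice, and RNA was extracted with Trizol without culture. DN thymocytes lacked CD4, CD8α and TCRβ, and DP thymocytes carried both CD4 and CD8α. CD4SP thymocytes carried CD4 but not CD8α with high TCRβ, and CD8SP thymocytes carried CD8α but not CD4 with high TCRβ. Each subset was read on 3 Affymetrix arrays, 12 in all. The labels do not say whether the 3 arrays of a subset came from separate mice, and the p-values rest on the spread between arrays, which may be technical.

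Kruppel-like factors bind CACCC and GC-rich elements through zinc fingers at the C terminus, and they differ in the N-terminal part, which recruits coactivators or corepressors. KLF2, KLF4, KLF6 and KLF7 are mostly known as activators. KLF3 and KLF12 repress through the corepressor CtBP, and KLF9, KLF10 and KLF13 bind the corepressor Sin3. In mouse T cells KLF2 is known for holding naive cells quiescent and for driving the sphingosine-1-phosphate receptor S1P1, which mature thymocytes need to leave the thymus.

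All values are on a log scale, taken as log2 although the sources used here state no base, against the average of the 3 DP arrays, which puts DP at 0 for every gene, and levels cannot be set against each other between genes. The number of arrays limits the precision. A difference is given ± the standard error (SE) of the limma fit with its Benjamini-Hochberg adjusted p over all genes, and "rose", "fell" or "called" refers to an adjusted p under 0.05. The comparisons of DP with DN, CD4SP with DP and CD8SP with DP share the 3 DP arrays. The sort genes went with their labels: Cd4 was 5.22 and Cd8a 3.72 higher in DP than in DN, Cd8a fell by 6.53 in CD4SP against DP, and Cd4 fell by 8.90 in CD8SP against DP. DN replicate 1 and CD8SP replicate 1 were the arrays farthest from others of their subset, with array weights of 0.527 and 0.276, the lowest of the 12. In bulk samples, fewer cells of a type and less RNA per cell cannot be told apart.

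The bases before the annotated transcription start are shown for 4 genes that the results turn on, since KLF binding elements and the sites of known Klf2 regulators lie in such windows. They are from RefSeq on GRCm38.p6, each 250 bases on the + strand and written 5′ to 3′, at chr8:72318812-72319061, chr5:64803271-64803520, chr13:5861239-5861488 and chr19:23140976-23141225. Capitals mark CACCC, which reads GGGTG from the opposite strand, the MEF2 consensus and the FOXO element GTAAACA.
Klf2: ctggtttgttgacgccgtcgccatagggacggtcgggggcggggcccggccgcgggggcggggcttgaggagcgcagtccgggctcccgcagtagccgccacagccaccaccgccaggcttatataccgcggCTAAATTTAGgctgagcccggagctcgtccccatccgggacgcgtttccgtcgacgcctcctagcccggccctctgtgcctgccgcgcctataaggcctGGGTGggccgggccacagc
Klf3: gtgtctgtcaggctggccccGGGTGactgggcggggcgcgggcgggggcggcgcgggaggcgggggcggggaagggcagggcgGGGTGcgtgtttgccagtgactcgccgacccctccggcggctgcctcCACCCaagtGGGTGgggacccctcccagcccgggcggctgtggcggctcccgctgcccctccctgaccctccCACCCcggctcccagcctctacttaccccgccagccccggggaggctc
Klf6: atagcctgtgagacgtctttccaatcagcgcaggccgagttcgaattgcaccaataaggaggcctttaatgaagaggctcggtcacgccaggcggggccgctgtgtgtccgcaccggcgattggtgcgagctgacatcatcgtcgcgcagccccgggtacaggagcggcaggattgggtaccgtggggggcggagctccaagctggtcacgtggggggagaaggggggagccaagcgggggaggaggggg
Klf9: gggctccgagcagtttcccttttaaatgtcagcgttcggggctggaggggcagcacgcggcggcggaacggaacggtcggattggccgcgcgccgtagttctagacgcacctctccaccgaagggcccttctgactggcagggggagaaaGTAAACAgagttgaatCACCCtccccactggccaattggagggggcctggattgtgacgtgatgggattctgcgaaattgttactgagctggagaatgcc
Windows of 300 bases (250 before and 50 after the start) were at hand for 8 of the 9 members, and both strands were searched. CACCC stood in 6 of the 8 windows, against 57.5% of all 32851 windows in the table. GGGCGG, the core of the GC box, stood in 6 of the 8, against 35.7% of all. The GC content of the 8 windows ran from 45.7% to 76.7%, against a median of 52.7% over all windows. These shares were not adjusted for GC content. The Klf3 window held 5 CACCC and 6 GGGCGG matches, which share 1 base where they touch, and that of Klf6 held 0 and 1. Klf2 held the only match to the MEF2 consensus, at position -118 from the start, against 3.19% of all windows, and Klf9 the only GTAAACA, at position -100, against 3.65% of all. These matches describe the letters of the windows.

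Klf2 had by far the widest range in the family. It was high in both single-positive subsets, low in DN and lowest in DP. Its 1 probe set read 5.40, 5.40 and 5.58 on the CD4SP arrays, 5.29, 5.65 and 5.74 on the CD8SP arrays, and -0.03, -0.28 and 0.31 on the DP arrays. No single-positive array came within 4 log2 units of a DP array. The difference was 5.46 ± 0.31 in CD4SP against DP (44.0-fold, adjusted p = 3.03e-07) and 5.56 ± 0.31 in CD8SP against DP (47.1-fold, adjusted p = 2.58e-07). On the DN arrays Klf2 read 0.78, 2.06 and 2.12, all above the 3 DP arrays and below the 6 single-positive arrays. It fell by 1.65 ± 0.31 in DP against DN (3.14-fold lower, adjusted p = 0.00156). CD4SP lay 3.81 ± 0.31 and CD8SP 3.91 ± 0.31 above DN (14.0-fold and 15.0-fold, adjusted p = 3.17e-06 and 3.92e-06). The order was thus CD8SP, CD4SP, DN and DP, in which only the neighbours CD8SP and CD4SP had no called difference. The fit uses 1 spread shared by all 4 groups.

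The DN arrays also carried the largest spread of Klf2, with an SD of 0.76 against 0.10 to 0.29 in the other groups (n = 3 each). DN replicate 1, the lowest at 0.78, also held the lowest levels of markers of other cells among the DN arrays. It also held the highest values of the sort genes among the DN arrays, Cd4 at -3.88 (-6.49 and -5.29 on DN replicates 2 and 3), Cd8a at -2.63 (-4.59 and -3.94) and Cd8b1 at -2.63 (-3.98 and -3.79), whose part was not tested either. On the DP arrays the mean of 8 B cell markers ranged from -0.05 to 0.07, that of 8 NK and innate lymphoid markers from -0.04 to 0.02, that of 14 myeloid and dendritic markers from -0.15 to 0.14 and that of 5 γδ T cell markers from -0.06 to 0.11. On DN replicates 1, 2 and 3 these means were 0.42, 1.85 and 1.59 for B cells, 1.17, 2.18 and 2.37 for NK and innate lymphoid cells, 1.56, 2.20 and 2.64 for myeloid and dendritic cells, and 2.35, 2.93 and 2.94 for γδ T cells. Of these lists 3 of 8, 7 of 8, 7 of 14 and 5 of 5 members were lower in DP than in DN, against 18.8% of all genes. The deposited scale does not tell which markers are at 0, and their part in the DN level of Klf2 was not tested. Without DN replicate 1 the fall of Klf2 in DP was 2.09 (adjusted p = 1.57e-05).

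**Figure D1:**
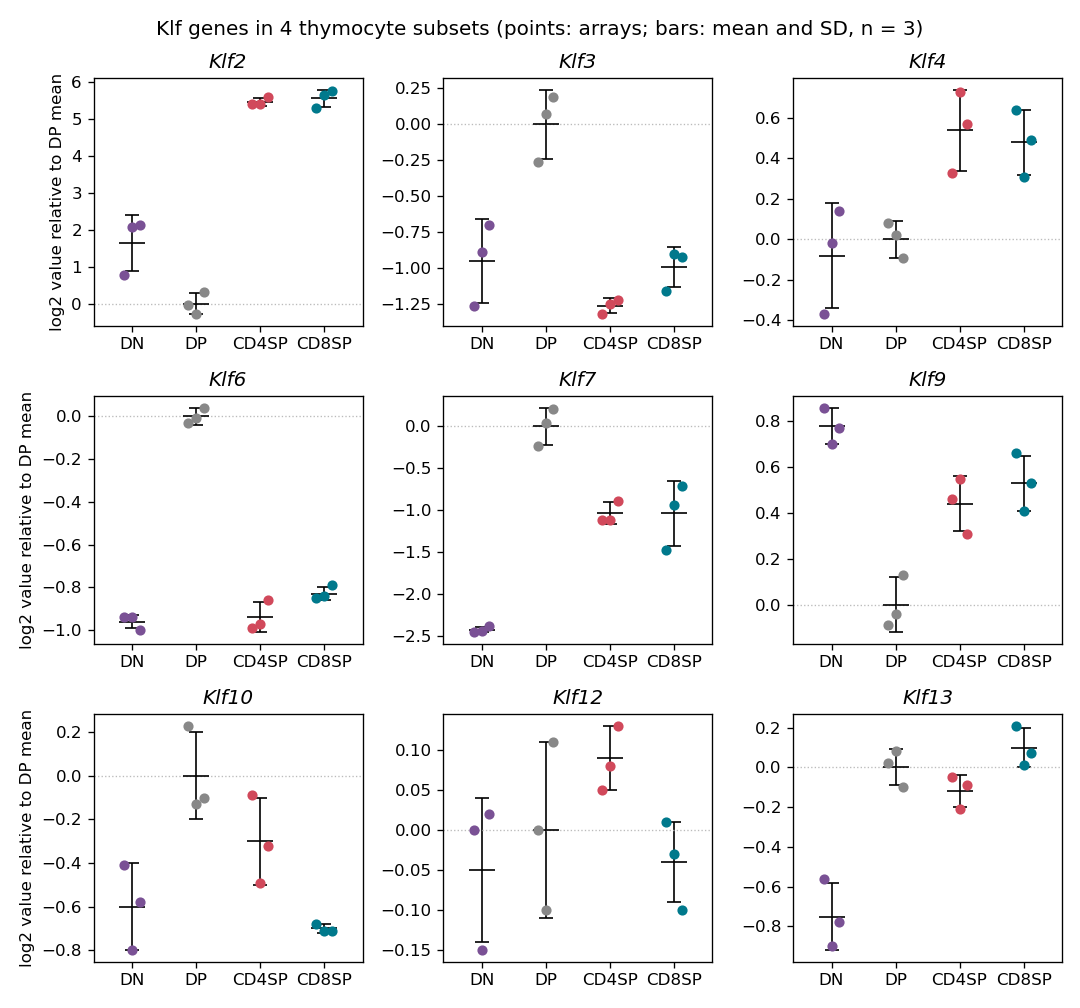
Log2 value against the DP average for each Klf gene (one panel each, with its own vertical axis) in DN, DP, CD4SP and CD8SP thymocytes. Points are arrays, bars the group mean and SD (n = 3). Klf2 stands at 5.46 in CD4SP and 5.56 in CD8SP, Klf3, Klf6 and Klf7 are highest in DP, and Klf12 stays between -0.15 and 0.13.

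Counted over the family, 7 of the 9 genes were called in DP against DN, 5 higher (Klf3, Klf6, Klf7, Klf10 and Klf13) and 2 lower (Klf2 and Klf9). Of all genes 36.6% were called in this comparison, 17.8% higher and 18.8% lower. In CD4SP against DP 6 of 9 were called, 3 higher (Klf2, Klf4 and Klf9) and 3 lower (Klf3, Klf6 and Klf7), where 32.7% of all genes were called, 16.4% higher and 16.2% lower. In CD8SP against DP 7 of 9 were called, 3 higher (Klf2, Klf4 and Klf9) and 4 lower (Klf3, Klf6, Klf7 and Klf10), where 39.0% of all genes were called, 18.2% higher and 20.9% lower. These shares are a description of the 9 genes. Against DN, 5 of 9 were called in CD4SP (43.7% of all genes, 22.6% higher and 21.0% lower), Klf2, Klf4, Klf7 and Klf13 higher and Klf9 lower, and 4 of 9 in CD8SP (40.9% of all genes, 18.7% higher and 22.3% lower), Klf2, Klf4, Klf7 and Klf13 higher. After quantile normalization the counts were smaller, with 3 higher and 1 lower in DP against DN and 1 higher and 1 lower in CD8SP against DP. Klf2, Klf3 and Klf10 lost their calls in DP against DN (-1.30, 0.88 and 0.44), Klf4 and Klf9 in CD4SP against DP (0.50 and 0.34), and Klf3, Klf4, Klf7, Klf9 and Klf10 in CD8SP against DP (-0.74, 0.43, -0.78, 0.42 and -0.44). This setting brought the SD of values on every array to 0.67, from 0.22 to 0.23 on the DP arrays before it.

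**Figure D2:**
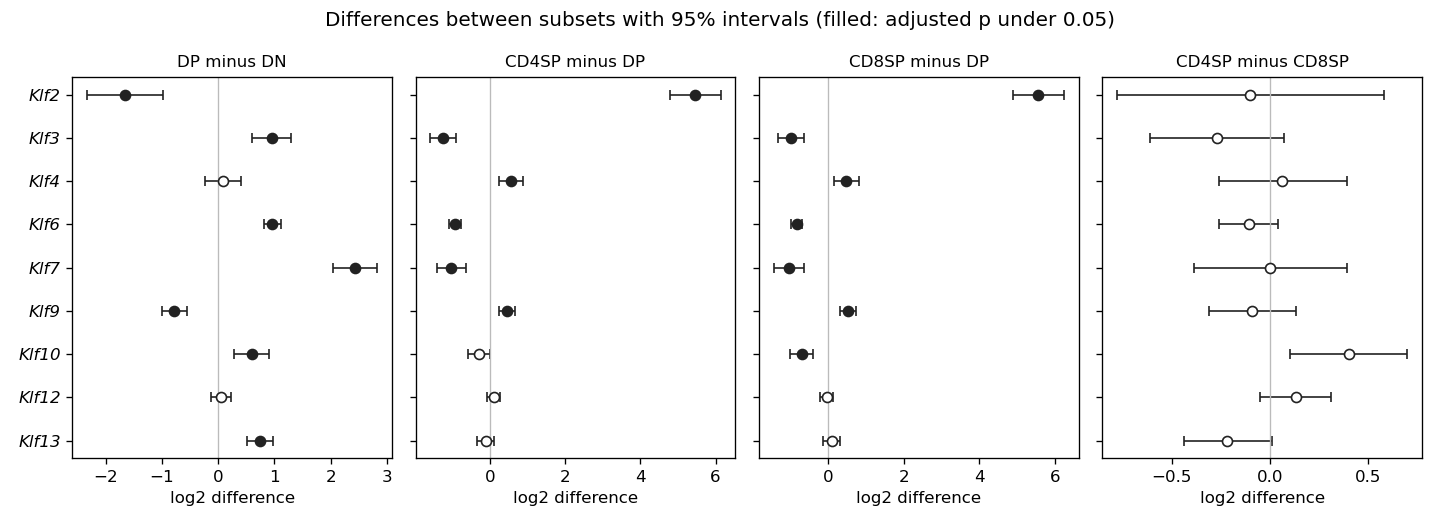
Log2 difference with its 95% interval for the 9 Klf genes (rows) in 4 comparisons (panels, left to right DP against DN, CD4SP and CD8SP each against DP, and CD4SP against CD8SP). Filled points have an adjusted p under 0.05. Klf2 lies at 5.46 and 5.56 in the panels of the single-positive subsets against DP, and no point is filled in the panel of CD4SP minus CD8SP.

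Klf7, an activator known from developing neurons, had the widest range after Klf2 and was lowest in DN. It read -0.24, 0.04 and 0.20 on the DP arrays and -2.46, -2.45 and -2.39 on the DN arrays, which do not overlap. It rose by 2.43 ± 0.18 in DP against DN (5.4-fold, adjusted p = 2.31e-06). In CD4SP it read -1.12, -1.12 and -0.89 and in CD8SP -1.48, -0.94 and -0.71, between DP and DN in each case. It fell by 1.04 ± 0.18 in both against DP (adjusted p = 9.48e-04 and 7.99e-04) and stood 1.39 ± 0.18 above DN in both (adjusted p = 8.71e-05 and 1.14e-04). The order was DP, then CD4SP and CD8SP without a called difference, then DN. All 4 of its probe sets were called the same way in these comparisons, with DP minus DN between 2.25 and 2.66. They stem from 1 source sequence in the annotation and are no independent readings of the gene.

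Klf6, an activator that is induced as an early response gene in many cells, had a small spread on the mean of its 5 probe sets. Its values were -0.03, -0.01 and 0.04 in DP, against -0.94, -0.94 and -1.0 in DN. In CD4SP they were -0.99, -0.97 and -0.86 and in CD8SP -0.85, -0.84 and -0.79. Every DP array was thus above each of the other 9 arrays, which lay between -1.0 and -0.79. Klf6 rose by 0.96 ± 0.07 in DP against DN (1.94-fold, adjusted p = 1.98e-06), and fell by 0.94 ± 0.07 in CD4SP and by 0.83 ± 0.07 in CD8SP against DP (adjusted p = 1.89e-06 and 4.47e-06). Below DP the neighbours CD8SP, CD4SP and DN had no called difference, with CD4SP minus DN at 0.02 (95% interval -0.13 to 0.17). Its pooled SD within groups was 0.05, which is lower than that of all but 0.445% of genes, against a median of 0.16. Averaging 5 probe sets narrows the spread, so that this rank is not like for like with genes of fewer probe sets. The SE of the single probe sets was 0.09 to 0.15 in DP minus DN. All 5 probe sets moved with the gene, from 0.78 to 1.14 in DP minus DN.

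Klf4, an activator that in other tissues restrains proliferation and is one of the reprogramming factors, gave small differences. It read 0.33, 0.73 and 0.57 in CD4SP and 0.64, 0.31 and 0.49 in CD8SP, against 0.08, 0.02 and -0.09 in DP. The single-positive arrays lay above all DP arrays, with differences of 0.54 ± 0.15 in CD4SP (adjusted p = 0.0154) and 0.48 ± 0.15 in CD8SP (adjusted p = 0.0239). DN (-0.37, -0.02 and 0.14) overlapped DP. CD4SP and CD8SP stood 0.63 ± 0.15 and 0.56 ± 0.15 above DN (adjusted p = 0.00533 and 0.0104). Its 2 probe sets agreed poorly over the 12 arrays (r = 0.18), and as single probe sets 0 of 2 were called in CD4SP against DP and 1 of 2 in CD8SP against DP. The call in CD4SP was lost without DP replicate 3 (adjusted p = 0.0566) and without CD4SP replicate 2 (adjusted p = 0.0659), and that in CD8SP without any of 4 arrays: DP replicates 2 (adjusted p = 0.0557) and 3 (adjusted p = 0.0796) and CD8SP replicates 1 (adjusted p = 0.0777) and 3 (adjusted p = 0.0564). Markers of dissociation and heat shock, a list of 14 early response and chaperone genes, averaged 0.83, 0.26 and 0.52 on the CD4SP arrays and 0.41, 0.20 and 0.38 on the CD8SP arrays, against 0.04, -0.07 and 0.04 on the DP arrays. Against DP, 6 of the 14 markers were higher and 1 was lower in CD4SP (16.4% and 16.2% of all genes). For CD8SP the counts were 3 higher and 2 lower (18.2% and 20.9% of all genes). Their part in the Klf4 differences was not tested.

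Among the repressors that bind CtBP, Klf3 followed nearly the same pattern as Klf6. KLF3 represses, among others, genes that KLF1 activates in erythroid cells. Klf3 read -0.26, 0.07 and 0.19 in DP, against -1.26, -0.89 and -0.70 in DN, with no overlap. It rose by 0.95 ± 0.15 in DP (1.93-fold, adjusted p = 6.14e-04). The CD4SP arrays read -1.32, -1.25 and -1.22 and the CD8SP arrays -1.16, -0.90 and -0.92. These 6 arrays lay below the DP arrays and overlapped those of DN. Klf3 fell by 1.26 ± 0.15 in CD4SP (2.40-fold lower, adjusted p = 8.53e-05) and by 0.99 ± 0.15 in CD8SP (1.99-fold lower, adjusted p = 4.11e-04). Each of its 7 probe sets, which stem from 7 source sequences, was called higher in DP than in DN and lower in CD4SP and in CD8SP than in DP. Their ranges were 0.69 to 1.45, -1.64 to -0.76 and -1.29 to -0.65 in that order of comparisons. Below DP, the neighbours DN, CD8SP and CD4SP had no called difference. The difference of CD4SP from DN, -0.31 ± 0.15 (adjusted p = 0.124), was called without DN replicate 1 (-0.47, adjusted p = 0.0245).

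Klf12, the other member that binds CtBP, stayed between -0.15 and 0.13 on all 12 arrays and was called in no comparison. Its difference was 0.05 (95% interval -0.13 to 0.23) in DP minus DN, 0.09 (-0.09 to 0.27) in CD4SP minus DP and -0.04 (-0.22 to 0.14) in CD8SP minus DP. The mean hides probe sets that disagreed, with correlations from -0.76 to 0.43 over the arrays. The probe set 1439846_at was called lower in DP than in DN (-0.47 ± 0.16, adjusted p = 0.037), and lower in CD4SP (-0.75 ± 0.16) and CD8SP (-0.81 ± 0.16) than in DN. The other 4 were not called in these 3 comparisons, and among them 1455521_at read 0.30 ± 0.28 in DP minus DN.

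Of the members that bind Sin3, Klf9 ran opposite to Klf3, Klf6 and Klf7. KLF9 is known as a gene induced by glucocorticoid and thyroid hormone. It read -0.09, -0.04 and 0.13 in DP, against 0.86, 0.70 and 0.77 in DN, and the groups do not overlap. Klf9 fell by 0.78 ± 0.10 in DP (1.71-fold lower, adjusted p = 1.23e-04). In CD4SP it read 0.46, 0.55 and 0.31 and in CD8SP 0.66, 0.41 and 0.53, above DP and below every DN array. It was 0.44 ± 0.10 higher in CD4SP (adjusted p = 0.00578) and 0.53 ± 0.10 higher in CD8SP (adjusted p = 0.0015) than in DP. It fell by 0.34 ± 0.10 in CD4SP against DN (adjusted p = 0.0188), whereas the difference of CD8SP from DN was -0.24 (95% interval -0.46 to -0.02, adjusted p = 0.0739). Leaving out DN replicate 1 (adjusted p = 0.0623) or CD4SP replicate 3 (adjusted p = 0.0766) ended the call in CD4SP against DN, and CD8SP against DN was called without CD8SP replicate 1 (-0.31, adjusted p = 0.0425). The 7 probe sets divided. In DP minus DN, 1456341_a_at read -1.99 ± 0.20, 1422264_s_at -1.84 ± 0.48 and 1428288_at -1.51 ± 0.12, and all of these were called. The other 4 lay between -0.43 and 0.29 and were not called. In CD4SP and CD8SP against DP 2 and 3 of the 7 were called, all higher. With the probe set of smallest spread, 1436952_at, in place of the mean, Klf9 was at 0.11 in DP minus DN and -0.15 in CD8SP minus DP, both uncalled.

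Klf10, the early gene induced by TGF-β, has 1 probe set here. It read 0.23, -0.13 and -0.10 in DP, against -0.41, -0.80 and -0.58 in DN, and rose by 0.60 ± 0.14 in DP (1.51-fold, adjusted p = 0.00561). The CD8SP arrays read -0.68, -0.71 and -0.71, all below the DP arrays, and Klf10 fell by 0.70 ± 0.14 in CD8SP (1.62-fold lower, adjusted p = 0.00196). The CD4SP arrays read -0.09, -0.49 and -0.32 and overlapped those of DP, with a difference of -0.30 ± 0.14 (adjusted p = 0.125). With a term for the replicate number in the limma fit it was called (adjusted p = 0.0314), as was CD4SP minus DN (0.30, adjusted p = 0.0258). Without that term no neighbours in the order DP, CD4SP, DN and CD8SP had a called difference, while the ends of it did.

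Klf13, known in T cells for inducing Ccl5 and in mouse thymocytes for lowering Bcl2l1, was lowest in DN. It read 0.02, 0.08 and -0.10 in DP, against -0.56, -0.90 and -0.78 in DN. The groups do not overlap, and Klf13 rose by 0.75 ± 0.10 in DP (1.68-fold, adjusted p = 2.01e-04). Afterwards it stayed near DP: the CD4SP arrays read -0.05, -0.21 and -0.09 and the CD8SP arrays 0.21, 0.01 and 0.07. Neither difference from DP was called (-0.12, 95% interval -0.35 to 0.11 in CD4SP, and 0.10, -0.13 to 0.32 in CD8SP), and both subsets stood above DN, by 0.63 ± 0.10 in CD4SP and 0.85 ± 0.10 in CD8SP (adjusted p = 5.27e-04 and 8.37e-05). One of its 3 probe sets, 1432543_a_at, rose by 1.80 ± 0.15 in DP against DN and fell by 0.50 ± 0.15 in CD8SP against DP. A second, 1436316_at, rose by 0.64 ± 0.13 in DP against DN and by 0.43 ± 0.13 in CD8SP against DP. The last, 1456030_at, was called in neither (-0.19 ± 0.21 in DP minus DN and 0.36 ± 0.21 in CD8SP minus DP). It has the highest mean of values relative to DP, which is no signal level and favours the probe set lying least below DP. Klf13 was at -0.19 in DP minus DN when that probe set stood for the gene.

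**Figure D3:**
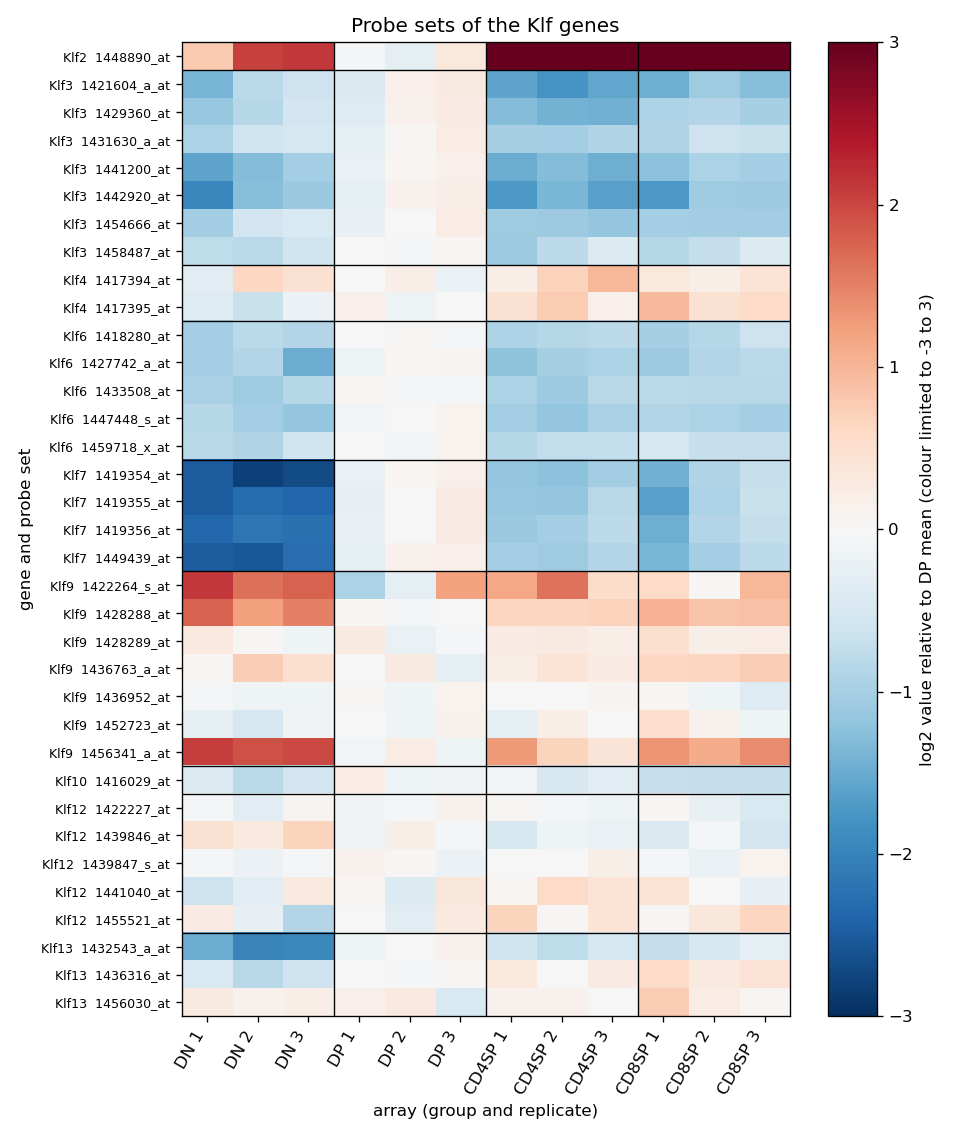
Log2 value relative to the DP mean for the 35 Klf probe sets (rows, grouped by gene) on the 12 arrays (columns, grouped by subset); red is above and blue below DP, with the colour limited to -3 to 3. The 7 rows of Klf3, 5 of Klf6 and 4 of Klf7 change together, whereas the rows of Klf9, Klf12 and Klf13 differ within the gene.

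At the level of single probe sets, 19 of the 35 rose and 5 fell in DP against DN (18.9% and 17.8% of all probe sets). In CD4SP against DP 3 were higher and 17 lower (14.7% and 16.8% of all), and in CD8SP against DP 6 were higher and 18 lower (16.4% and 22.8% of all). Klf3, Klf6 and Klf7 hold 16 of the 35, so that these counts weigh them most.

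The single-positive subsets were also set against each other. Of the 9 genes 0 were called in CD4SP minus CD8SP, where limma called 12.7% of all genes, 7.78% higher and 4.91% lower, and 0 of the 35 probe sets were called (12.9% of all probe sets). At an unadjusted p under 0.05 there were 1 gene (Klf10) and 4 probe sets, against 26.4% of all genes and 27.0% of all probe sets. The arrays did not overlap for 5 of the 9 genes, against 30.3% of all genes. Klf10 was 0.40 higher in CD4SP (95% interval 0.10 to 0.70, adjusted p = 0.0852), and was called in a limma fit with a term for the replicate number (adjusted p = 0.0194). Klf2 gave -0.10 (95% interval -0.78 to 0.58), a wide interval that rests on the spread shared with DN and DP. Klf3 gave -0.27 (-0.61 to 0.07) and Klf13 -0.22 (-0.44 to 0.01). The intervals of Klf6 (-0.26 to 0.04), Klf9 (-0.31 to 0.13) and Klf12 (-0.05 to 0.31) held no difference beyond 0.31 in size, and those of Klf4 (-0.26 to 0.39) and Klf7 (-0.39 to 0.39) none beyond 0.39.

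Most genes of egress and homing that are known to change in Klf2-deficient mouse T cells rose in the single-positive subsets. In CD4SP against DP 7 of the 9 measured genes rose, Ccr9 fell and Ccr3 was not called, and these counts were equal in CD8SP against DP. Over all genes 16.4% rose and 16.2% fell in CD4SP, and 18.2% rose and 20.9% fell in CD8SP. The list's median was 2.32 in CD4SP and 2.33 in CD8SP, against 0.04 and 0.00 over all genes. S1pr1, the egress receptor, read 4.55, 5.0 and 5.10 in CD4SP and 4.0, 4.99 and 4.91 in CD8SP, against 0.26, -0.35 and 0.09 in DP. All 6 single-positive arrays were above the DP arrays, by 4.88 ± 0.36 in CD4SP (adjusted p = 2.22e-06) and 4.63 ± 0.36 in CD8SP (adjusted p = 2.97e-06). Like Klf2, S1pr1 was lowest among the DN arrays on DN replicate 1 (-0.02, against 1.31 and 1.15 on the others), but DP minus DN was -0.81 ± 0.36 and not called (adjusted p = 0.108).

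Itgb7, the β7 integrin of gut homing, rose by 3.64 ± 0.18 in CD4SP and 4.12 ± 0.18 in CD8SP. Il7r, the receptor chain for the survival cytokine IL-7, rose by 7.20 ± 0.36 in CD4SP and 5.99 ± 0.36 in CD8SP, and Ccr7, the receptor for chemokines of the medulla and lymph nodes, by 7.23 ± 0.61 in CD4SP and 6.85 ± 0.61 in CD8SP. The sphingosine phosphate receptor gene S1pr4 rose by 1.66 ± 0.18 in CD4SP and 2.33 ± 0.18 in CD8SP. Cd69, whose product removes S1P1 from the surface and so opposes egress, rose too, by 2.32 ± 0.17 in CD4SP and 1.94 ± 0.17 in CD8SP. Cxcr3, a chemokine receptor gene that is raised in Klf2-deficient cells, rose by 0.82 ± 0.18 in CD4SP and 0.98 ± 0.18 in CD8SP. Ccr9, the receptor for the thymic and gut chemokine CCL25, was the one that fell, by 1.54 ± 0.12 in CD4SP and 1.16 ± 0.12 in CD8SP. Ccr3 was not called (0.86 ± 0.51 in CD4SP and -0.45 ± 0.51 in CD8SP).

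In DP against DN, where Klf2 fell, 2 members of this list rose, 3 fell and 4 were not called. Over all genes 17.8% rose and 18.8% fell. Il7r fell by 4.92 ± 0.36, Cxcr3 fell by 0.67 ± 0.18 and Itgb7 fell by 0.49 ± 0.18, while Ccr9 rose by 2.56 ± 0.12 and Cd69 by 0.50 ± 0.17. The call of Cd69 was lost without DN replicate 1 (0.42) and without any one of 6 other arrays. Cxcr3 lost its call in a fit of only the 6 arrays of DP and DN (adjusted p = 0.0607). On DN replicates 1, 2 and 3 Il7r read 4.06, 5.38 and 5.31, Itgb7 -0.01, 0.83 and 0.66, and Cxcr3 0.15, 0.80 and 1.04, each lowest on DN replicate 1 as were the markers of other cells given above, whose part was not tested.

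**Figure D4:**
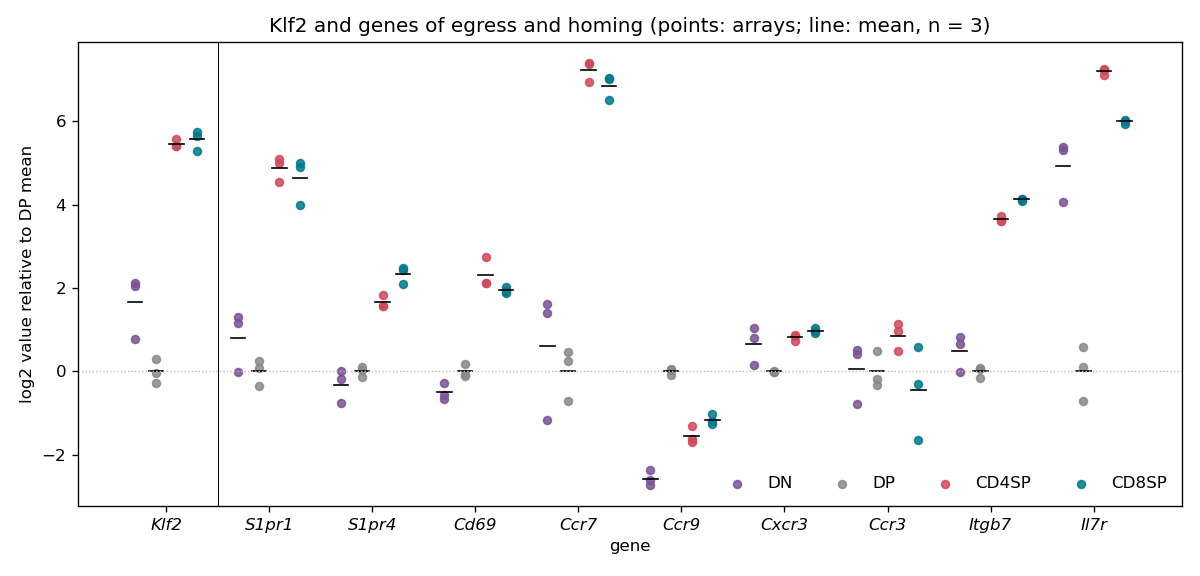
Log2 value relative to the DP mean for Klf2 (left of the line) and 9 genes of egress and homing in DN, DP, CD4SP and CD8SP thymocytes. Points are arrays and lines the mean (n = 3). S1pr1, Ccr7, Itgb7 and Il7r stand above DP in both single-positive subsets, as Klf2 does, and Ccr9 stands below.

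Regulators known to act on Klf2 changed in both directions. Of 15 measured members 3 rose and 5 fell in CD4SP against DP (median -0.13), and 2 rose and 8 fell in CD8SP against DP (median -0.29). Over all genes 16.4% rose and 16.2% fell in CD4SP, and 18.2% rose and 20.9% fell in CD8SP. Foxo1, a factor that activates Klf2 in T cells, read 1.73, 1.93 and 1.98 in CD4SP and 1.51, 1.68 and 1.68 in CD8SP, against 0.08, 0.02 and -0.10 in DP. It rose by 1.88 ± 0.13 in CD4SP (adjusted p = 1.25e-06) and 1.62 ± 0.13 in CD8SP (adjusted p = 3.33e-06), and its arrays do not overlap those of DP. Mef2a, one of the MEF2 factors through which ERK5 induces Klf2 in endothelial cells, went the other way. It read -1.70, -1.70 and -1.62 in CD4SP and -1.81, -1.80 and -1.66 in CD8SP, against -0.16, 0.03 and 0.13 in DP. It fell by 1.67 ± 0.09 in CD4SP and 1.76 ± 0.09 in CD8SP (adjusted p = 3.14e-07 and 2.2e-07), and rose by 1.45 ± 0.09 in DP against DN. Map2k5, the kinase above ERK5, fell by 0.74 ± 0.09 in CD4SP and 0.81 ± 0.09 in CD8SP, and Fbxw7, a ubiquitin ligase component that targets KLF2, fell by 0.91 ± 0.09 in CD4SP and 0.87 ± 0.09 in CD8SP. Pik3cd, a phosphoinositide kinase gene whose signal keeps FOXO1 out of the nucleus, rose by 1.61 ± 0.12 in CD4SP and 1.79 ± 0.12 in CD8SP, calls that were lost with its probe set of smallest spread (0.41 in CD4SP and 0.18 in CD8SP). Smurf1, a ubiquitin ligase gene, rose by 0.46 ± 0.12 in CD4SP and was not called in CD8SP (-0.03 ± 0.12). In DP against DN 7 of the 15 rose and 3 fell (17.8% and 18.8% of all genes), with a list median of 0.26. Mef2d (0.71 ± 0.09) and Mapk7, which encodes ERK5 (0.67 ± 0.12), were among those that rose. The call of Mef2d was lost with its probe set of highest mean (0.27). Pik3cd (-0.66 ± 0.12), Mef2c (-1.96 ± 0.56) and Wwp1 (-0.28 ± 0.08) fell, and all of these calls were lost with the probe set of smallest spread (-0.03, -0.12 and -0.11). Those of Mef2c and Wwp1 were also lost without DN replicate 2 (-1.46 and -0.27) and without DN replicate 3 (-1.58 and -0.25), and that of Wwp1 without DP replicate 3 (-0.26).

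Among the other genes of the KLF and SP family Klf16 had the largest called difference in DP against DN and in both single-positive subsets against DP. Of 14 measured members, 5 rose and 1 fell in DP against DN (17.8% and 18.8% of all genes). Against DP, 3 rose and 2 fell in CD4SP (16.4% and 16.2% of all genes), and 2 rose and 2 fell in CD8SP (18.2% and 20.9%). Klf16, a repressor of the group that binds Sin3, read 0.92, 0.77 and 1.0 in CD4SP and 1.10, 1.19 and 1.28 in CD8SP, against -0.01, 0.07 and -0.06 in DP, and DN read 1.20, 1.27 and 1.31. DP was below all other arrays, the order seen for Klf9, and Klf16 rose by 0.90 ± 0.09 in CD4SP and 1.19 ± 0.09 in CD8SP against DP and fell by 1.26 ± 0.09 in DP against DN (adjusted p = 1.41e-06). Sp3 and Sp1, which compete with KLF proteins for GC boxes, ran the other way. Sp3 rose by 0.64 ± 0.12 in DP against DN and fell by 0.56 ± 0.12 in CD4SP and 1.02 ± 0.12 in CD8SP, while Sp1 rose by 0.32 ± 0.08 in DP against DN and fell by 0.26 ± 0.08 in CD4SP and 0.62 ± 0.08 in CD8SP. Sp4 rose by 0.68 ± 0.08 in DP against DN, and Sp8 rose by 0.38 ± 0.11 in DP against DN, 0.62 ± 0.11 in CD4SP and 0.33 ± 0.11 in CD8SP. The calls of Sp1 in DP against DN and in CD4SP were lost with a single probe set in place of the mean (0.13 in DP minus DN and -0.12 in CD4SP minus DP). Sp1 in CD4SP also lost its call without any one of the DP and CD4SP arrays (-0.29 to -0.22), and Sp8 in CD8SP without CD8SP replicate 1 (0.23) and without each DP array (0.30 to 0.35).

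Corepressors of KLF proteins were mostly lower in the single-positive subsets. Of 9 measured members 1 rose and 5 fell in CD4SP against DP (median -0.25), and 1 rose and 6 fell in CD8SP against DP (median -0.46). Over all genes 16.4% rose and 16.2% fell in CD4SP, and 18.2% rose and 20.9% fell in CD8SP. Sap30, a subunit of the Sin3 complex, fell by 1.95 ± 0.11 in CD4SP and 1.07 ± 0.11 in CD8SP, Sin3b fell by 1.25 ± 0.09 in both, and the deacetylase gene Hdac1 fell by 0.49 ± 0.08 in CD4SP and 0.46 ± 0.08 in CD8SP. Fhl3, which encodes a partner of KLF3, rose by 0.85 ± 0.15 in CD4SP and 1.34 ± 0.15 in CD8SP. In DP against DN 2 rose and 2 fell (17.8% and 18.8% of all genes). Sin3b rose by 0.64 ± 0.09 and Hdac1 by 0.22 ± 0.08, and Sap30 fell by 0.96 ± 0.11 and Fhl3 fell by 0.81 ± 0.15. The call of Hdac1 there was lost without most single arrays (0.20 to 0.25).

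Cell cycle brakes and the growth genes they oppose, with which KLF2 and KLF4 are linked in quiescence, were called in most cases in each of the 3 comparisons. Of 19 members 12 rose and 4 fell in DP against DN (17.8% and 18.8% of all genes). Their median was 0.82, against 0.04 over all genes. The 4 that fell were the growth genes Myc (-3.71 ± 0.16), Ccnd2 (-4.45 ± 0.31) and Ccnd1 (-0.64 ± 0.11), and the cell cycle inhibitor gene Cdkn1a (-1.07 ± 0.18). With the probe set of smallest spread Ccnd1 (-0.31) and Cdkn1a (-0.43) were not called. The inhibitor gene Cdkn2d rose by 2.15 ± 0.12 and the antiproliferative gene Btg1 by 1.99 ± 0.17. In the single-positive subsets, where Klf2 was highest, 5 rose and 9 fell in CD4SP and 5 rose and 10 fell in CD8SP against DP. Over all genes 16.4% rose and 16.2% fell in CD4SP, and 18.2% rose and 20.9% fell in CD8SP. Growth genes were among the members that rose, with Myc at 2.19 ± 0.16 in CD4SP and 2.63 ± 0.16 in CD8SP and Ccnd2 at 6.62 ± 0.31 in CD4SP and 6.70 ± 0.31 in CD8SP. Ccnd1 rose in CD8SP (0.35), a call lost with its probe set of smallest spread (0.25) and without CD8SP replicate 1 (0.28), among other settings. The growth gene Ccnd3 went the other way and was highest in DP. Its means were -2.23 in DN, -1.41 in CD4SP and -1.87 in CD8SP, against 0 in DP. Slfn2, needed for T cell quiescence in the mouse, rose by 1.66 ± 0.16 in CD4SP and 1.17 ± 0.16 in CD8SP, and Foxp1, another quiescence factor gene, by 0.79 ± 0.10 in CD4SP and 0.46 ± 0.10 in CD8SP. The inhibitor gene Cdkn2c fell by 1.91 ± 0.13 in CD4SP and 1.48 ± 0.13 in CD8SP, and Btg2 fell by 1.20 ± 0.16 in CD4SP and 1.57 ± 0.16 in CD8SP. Tsc1 (0.22 ± 0.08 in CD4SP) was called on the mean of its probe sets, and was at -0.05 on the probe set of smallest spread, and it lost its call without most single arrays (0.15 to 0.26).

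Of 13 genes of the TGF-β pathway, which induces Klf10, 6 rose and 2 fell in CD4SP against DP and 5 rose and 4 fell in CD8SP against DP. Over all genes 16.4% rose and 16.2% fell in CD4SP, and 18.2% rose and 20.9% fell in CD8SP. Smad7, the inhibitory SMAD, rose by 7.01 ± 0.36 in CD4SP and 7.17 ± 0.36 in CD8SP, and the corepressor genes Ski and Skil rose by 1.75 ± 0.09 and 2.21 ± 0.14 in CD4SP and by 1.21 ± 0.09 and 1.36 ± 0.14 in CD8SP. The receptor gene Tgfbr2 rose by 2.08 ± 0.16 in CD4SP and 1.64 ± 0.16 in CD8SP, while Tgfbr1 fell by 0.58 ± 0.10 in CD4SP and 1.11 ± 0.10 in CD8SP. The call of Tgfbr2 was lost with its probe set of smallest spread (0.20 in CD4SP and 0.21 in CD8SP). Itch, the ubiquitin ligase known to act on KLF10 in the mouse, fell by 0.39 ± 0.09 in CD4SP and 0.64 ± 0.09 in CD8SP. Its call in CD4SP was lost with its probe set of highest mean (-0.19). Smad3 (-0.67 ± 0.08) and Smad2 (-0.28 ± 0.09) fell in CD8SP, Smad2 without a call when any one of DP replicates 1 and 3 and CD8SP replicates 1 and 2 was left out (-0.28 to -0.23). In DP against DN 5 rose and 1 fell (17.8% and 18.8% of all genes), Itch rising by 0.94 ± 0.09 and Smad7 at -4.52 ± 0.36. Smad4 (0.56) and Ski (0.39) also rose there, Ski without a call on its probe set of highest mean (0.28).

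Of 9 genes linked to Klf13 and Klf9, 2 rose and 4 fell in each single-positive subset against DP, and 2 rose and 3 fell in DP against DN. The list holds reported targets of Klf13, hormone receptor genes to which Klf9 responds, and others. Over all genes 16.4% rose and 16.2% fell in CD4SP, and 18.2% and 20.9% in CD8SP. In DP against DN 17.8% rose and 18.8% fell. Bcl2l1, the gene of the survival factor BCL-XL, rose by 2.26 ± 0.15 in DP against DN and fell by 1.79 ± 0.15 in CD4SP against DP and fell by 2.67 ± 0.15 in CD8SP against DP. Ccl5 read -0.18, 0.10 and 0.07 in DP, against 0.28, 2.06 and 2.37 in DN, where the NK and innate lymphoid markers given above were also lowest on DN replicate 1, and their part was not tested. It was lower in DP than in DN (-1.57 ± 0.45, adjusted p = 0.019), and its differences in CD4SP (0.49 ± 0.45) and CD8SP (0.81 ± 0.45) were not called. Per1, a clock gene that glucocorticoids induce, rose by 0.76 ± 0.12 in CD4SP and 0.43 ± 0.12 in CD8SP, and Zbtb16 by 2.5 ± 0.18 in CD4SP and 0.54 ± 0.18 in CD8SP. The call of Zbtb16 in CD8SP was lost without CD8SP replicate 1 (0.43), and with its probe set of smallest spread it was called in neither subset (0.11 in CD4SP and 0.15 in CD8SP). The glucocorticoid receptor gene Nr3c1 fell by 0.62 ± 0.12 in CD4SP and 1.16 ± 0.12 in CD8SP, with the opposite sign on its probe set of highest mean (0.20 in CD4SP and 0.39 in CD8SP). Thra, a thyroid hormone receptor gene, fell by 0.56 ± 0.12 in CD4SP and 1.01 ± 0.12 in CD8SP and also fell by 0.77 ± 0.12 in DP against DN. Fkbp5 fell in CD8SP against DP (-1.13), and was at 0.15 and not called with its probe set of highest mean. In DP against DN, Dio1 rose (0.53) and Zbtb16 fell, from a mean of 2.03 in DN. That call of Zbtb16 was lost with its probe set of smallest spread (-0.14).

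The genes most like each member were taken by Pearson correlation over the 12 arrays, which mainly follows the 4 group means, since the arrays of a subset lie close together and all values are centred on DP. For Klf2 they were Ifi213 (r = 0.997), Bcl3 (0.996) and Ripor2 (0.996), of which Ifi213 had group means of 1.52 (DN), 0.00 (DP), 5.73 (CD4SP) and 5.92 (CD8SP). For Klf3 they were Plekhf1 (0.971), Neil1 (0.971) and Fam107b (0.969), and for Klf6 Adam12 (0.992), Nyap1 (0.991) and the clock gene Arntl (0.988). The group means of Adam12 were more than 3 log2 units below DP in each other subset, a pattern like that of Klf6 with a wider range. Klf7 was most like the inhibitor gene Cdkn2d (0.982), Rfx3 (0.981) and Garre1 (0.981). The members with smaller differences gave Cox8c (0.961), Inmt (0.958) and Rnf152 (0.957) for Klf4, Ttc26 (0.951), Pigq (0.951) and Utp20 (0.946) for Klf9, Ccnt2 (0.957), Nsd1 (0.956) and Snap29 (0.952) for Klf10, and Abca3 (0.961), Plcxd2 (0.953) and Apbb1ip (0.950) for Klf13.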

How the data were processed

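Gene expression in sorted mouse thymocytes was measured on 12 Affymetrix arrays, 3 for each of 4 subsets, grouped by the subset named in the labels. The authors deposited 1 table of log values, read here as log2, for 45101 probe sets, between -9.94 and 10.28. The submitters' processing notes name MAS5, with no role or version, and give no log base. The scale was read from the table: for every probe set the 3 DP arrays average 0 (largest absolute mean 1.27e-06) and the medians of the arrays lie between -0.1 and 0.05, so that values are differences from DP and signal levels, detection calls and background are not analysed here. Base 2 was assumed, and with another base every fold would differ while the tests would not.

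Gene symbols came from the platform annotation: 34958 carried 1 gene symbol, 932 several and 9211 none, 64 were controls, and 34945 were used, of which 34741 were found in the RefSeq gene table with no differing symbol. The probe sets of a gene were averaged, which gave 18193 genes. A linear model with 4 group means was fitted to all 12 arrays in R 4.3.3 by limma 3.58.1, with contrasts.fit and an eBayes step that used no trend, and p-values were adjusted by the method of Benjamini and Hochberg over all genes, or over all probe sets where these were tested, in each of 6 comparisons. The script was tested on simulated data. Python 3.11.15 with pandas 2.3.3 and numpy 2.4.6 made the summaries, and matplotlib 3.10.9 the plots.

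The members, lists and tests were chosen with earlier results of these data known. All 9 members and their probe sets are named. From each other list, up to 4 genes of lowest adjusted p in a comparison are named, with called genes that went against the rest of the list and, for each called member, the 3 genes of highest correlation (symbols of clones and predicted genes passed over). Further list genes (Ccr7, Cxcr3 and Ccr3 against DP, Itgb7 in DP against DN, Ccl5, Ccnd3, and a gene's value in the second single-positive subset) were named after their values were seen. Alternatives changed the value that stands for a gene, the normalization, the variance prior, array weights, the samples, the covariates, the p-value adjustment and a filter on variable genes. The probe set of highest mean was chosen on values relative to DP. It is thus the one lying most above or least below DP, and need not have the strongest signal.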

Additional observations from a re-analysis of the deposited data

Results flagged for a closer look

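In CD4SP minus CD8SP, which equals the difference between the changes of the 2 subsets from DP, 22 of 88 measured genes of the lists (25.0%) passed the limma test of that difference (adjusted p under 0.05), against 12.7% of all genes, and none of the 9 Klf genes did. Alternatives for these genes were chosen after seeing the data. Tgfbr3 and Smad3 kept their calls in all of them, 20 genes lost theirs after quantile normalization, and 10 lost theirs when some single array was left out (Sp1, Sp3, Klf16, S1pr4, Il7r, Smurf1, Ccnd1, Foxp1, Nr3c1 and Thra). Quantile normalization brought the SD of values on the DP arrays to 0.67, from 0.22 to 0.23. These arrays enter the shared estimate of spread, so that losses under it cannot be laid to the CD4SP and CD8SP arrays alone. Among genes of the TGF-β pathway, the coreceptor gene Tgfbr3 was 1.28 ± 0.12 (SE, log2 units, n = 3 arrays each) higher in CD4SP than in CD8SP (adjusted p = 9.84e-05). Smad3 was 0.87 higher, Skil 0.84, Ski 0.54, Tgfbr1 0.52 and Tgfb1 0.47 (Tgfbr1 was at 0.07 and not called with its probe set of smallest spread), so that 6 of 13 genes of the list were higher in CD4SP, against 7.78% of all genes. Among genes linked to Klf13 and Klf9, Zbtb16, which encodes the factor of innate-like T cells, was 1.96 ± 0.18 higher in CD4SP (adjusted p = 8.98e-05), Bcl2l1 0.88, Nr3c1 0.54 and Thra 0.45. Zbtb16 was at -0.04 with its probe set of smallest spread and Nr3c1 at -0.19 with that of highest mean, neither called.

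Of the corepressor genes, Sap30 gave -0.88 ± 0.11 (adjusted p = 6.17e-04), lower in CD4SP. In the egress and homing list Il7r gave 1.21 and S1pr4 -0.68. Among the regulators of Klf2, Mapk7 gave 0.77 and Smurf1 0.49. Of the quiescence and growth genes, Tob1 gave 0.73, Rbl2 0.58, Foxp1 0.34 and Ccnd1 -0.44 (-0.03 and not called with its probe set of smallest spread). In the other KLF and SP genes, Sp3 gave 0.46, Sp1 0.36 and Klf16 -0.29.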

How the results depend on the processing

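All 9 genes were refitted in the 6 comparisons under 27 alternative settings, which gave 1452 values. Of these, 1369 stayed on the same side of the threshold, 59 lost a call, 19 gained one and 5 turned a called sign. The 1369 include 38 whose sign differed with no call in either fit. Of 29 called differences 21 lost the call in at least one setting. Klf2 in both single-positive subsets against DP and DN, Klf6 in its 3 comparisons with DP, and Klf7 in DP against DN kept their calls in all settings run. Klf2 in DP against DN lost it after quantile normalization (-1.30, adjusted p = 0.0592) and with Holm's adjustment. Called signs turned with the probe set of smallest spread for Klf9 in DP minus DN (0.11), CD8SP minus DP (-0.15) and CD4SP minus DN (0.15), and with that of highest mean for Klf13 in DP minus DN (-0.19) and CD4SP minus DN (-0.10). The choice by highest mean depends on the differences from DP themselves, so that a turned sign under it is no independent check. Of 125 called differences of list genes, counting those of CD4SP minus CD8SP, 74 lost the call in at least one setting. Quantile normalization ended 50 of these calls. Among them were Fhl3 in its 3 comparisons with DP, Smad3 and Foxp1 in CD8SP against DP, and Cdkn1a and Sp3 in DP against DN. The sign of Tsc1 in CD4SP minus DP turned to -0.05 with the smallest spread and -0.00 with the median. Signs of Nr3c1 (0.20 in CD4SP minus DP, 0.39 in CD8SP minus DP) and Fkbp5 (0.15 in CD8SP minus DP) turned with the highest mean. In CD4SP minus CD8SP, Zbtb16 turned to -0.04 (smallest spread) and Nr3c1 to -0.19 (highest mean), in alternatives chosen after seeing the data. The cause was not tested.

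Counts of members called moved by over 1.5 times as follows. Quantile normalization left 3 higher and 1 lower in DP against DN, 1 higher in CD4SP against DP, 1 higher and 1 lower in CD8SP against DP and 0 lower in CD4SP against DN. Holm's adjustment, stricter by construction, left 2 higher and 0 lower in DP against DN, 1 higher and 1 lower in each single-positive subset against DP, and 1 higher in each against DN with 0 lower in CD4SP. The probe set of smallest spread gave 1 lower in DP against DN, 1 higher in CD4SP against DP and 0 lower in CD4SP against DN. The probe set of highest mean gave 2 higher in CD4SP and 2 higher and 1 lower in CD8SP against DN. A majority of single probe sets gave 1 lower in DP against DN, 1 higher in each single-positive subset against DP and 0 lower in CD4SP against DN. Setting array medians to 0, and array weights, each gave 2 lower in CD4SP and 1 lower in CD8SP against DN. Leaving out DN 1 and CD8SP 1 together gave 2 lower in CD4SP against DN.

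With 1 array left out at a time, counts in DP against DN stayed at 5 higher and 2 lower. They ranged from 2 to 3 higher with 3 lower in CD4SP against DP, and from 2 to 3 higher with 4 lower in CD8SP against DP. CD4SP against CD8SP stayed at 0. Against DN both single-positive subsets kept 4 higher, with 0 to 1 lower.

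Arrays numbered 1 deviated together, with residual correlations of 0.106 to 0.156, all above those between different numbers (-0.162 to 0.08). Those of number 2 (-0.025 to 0.088) and number 3 (0.021 to 0.139) overlapped that range. The labels do not say what a replicate number marks, and the main fit held no term for it. With the replicate block, and also with arrays numbered 1 as a factor, 1 member was higher in CD4SP than in CD8SP (Klf10, adjusted p = 0.0194 with the block and 0.0171 with the factor), and 2 were lower in CD4SP than in DN (Klf9, and Klf3 at -0.31, adjusted p = 0.0262 with the block). Both settings also called Klf10 in CD4SP minus DP (-0.30, adjusted p = 0.0314 in each) and in CD4SP minus DN (0.30, adjusted p = 0.0258 with the block and 0.0261 with the factor).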
